A study of Mus musculus with 4 samples.

Results

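The RNAs described here are the ribosomal RNA (rRNA) features encoded in the mouse nucleus that were listed in a small RNA survey of sperm. Members were all features in the authors' rRNA class of both deposited tables except the mitochondrial mt-Rnr1 and mt-Rnr2, which gave 146 of the 70584 features listed in all classes and 146 of the 148 in the rRNA class. They were 143 genes and pseudogenes of 5S rRNA, 1 feature annotated as 5.8S rRNA and 2 transcripts of the locus CT010467.1, which are treated apart from the 5S members. Rows whose values were identical in every library were counted once, which left 98 distinct 5S members. Sperm had been taken from the cauda epididymis of 4 adult C57BL/6 mice, 2 labelled "Original cross" and 2 labelled "Extra cross to wildtype", and each mouse gave 1 small RNA library. The series title asks whether small RNA differs between sperm that are and are not open to silencing of a LoxP site. The labels used here name neither the LoxP allele, nor a Cre driver, nor which cross is the susceptible one. Both crosses shared strain, age class, tissue, Trizol extraction, gel size selection and sequencing lane.

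Ribosomes hold 4 rRNAs. RNA polymerase I transcribes the 18S, 5.8S and 28S rRNAs as one long precursor, whereas 5S rRNA is made by RNA polymerase III from separate short genes, with the factor TFIIIA bound inside the gene. The 5S RNA joins the large subunit together with the proteins RPL5 and RPL11. Mammalian genomes carry a tandem array of 5S genes and many dispersed copies, most of them pseudogenes. Fragments of rRNA are a regular component of small RNA from sperm, in which cytoplasmic translation is largely shut down.

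The unit was RPM, reads scaled per 1e6, as the authors' headers name it, with 1 value per feature and library. Which reads the total counts is not stated. The value of 1 read was 1.58 RPM and 0.561 RPM in replicates 1 and 2 of the original cross and 0.642 RPM and 0.238 RPM in replicates 1 and 2 of the extra cross, so the scale rested on 632859 to 4205692 reads. Original-cross replicate 1 was the shallowest library. Reads that match several copies appeared to be divided among them: single 5S rows held fractions of a read, yet the 143 rows added up to whole reads, 1528, 3431, 3030 and 9157 of them in original-cross 1, extra-cross 1, original-cross 2 and extra-cross 2, each within 0.0041 reads. A level of 1 copy is therefore a share of reads that it has in common with its relatives, and copies are not independent measurements.

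Rn5s, the copy against which the others are compared, lies at chr8:123598158-123598276 (GRCm38, also called mm10) on the minus strand, within a tandem array of 51 5S genes, all of them on the minus strand and all of them listed in the tables. The array covers chr8:123538786-123623745, a span of 84.96 kb, with starts 1665 to 1727 bases apart (median 1697). It holds 11 distinct sequences, and the 51 rows held 11 distinct sets of values, 1 per sequence. The Rn5s sequence is carried by 32 of the 51 genes, 8 more differ from it at 1 base, 9 at 2 to 8 bases, and 2 lack 10 bases. The remaining 92 rows of 5S lie outside the array, on 21 chromosomes. Over all 143 rows, 111 bear an n-R5s name or are Rn5s and 32 have other names. Their lengths range from 48 to 132 bases, 80 of them being 119 bases long, and the least similar, the 48-base Gm23764, equals Rn5s at 35.3% of positions counted over the longer length.

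**Figure D1:**
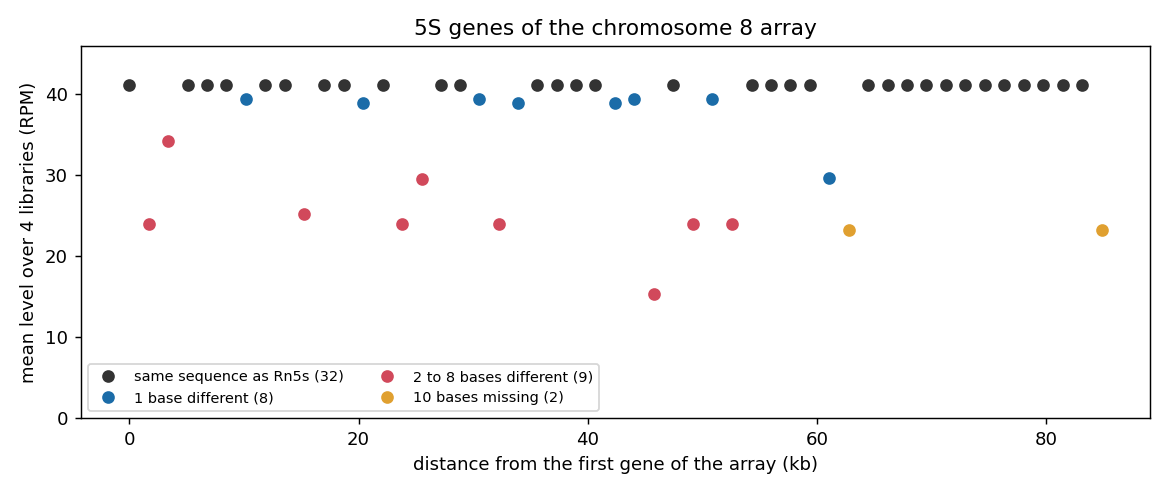
Mean level of the 51 5S genes of the chromosome 8 array (RPM, mean over 4 libraries, 1 point per gene) against distance in kb from the first gene, coloured by difference from Rn5s. The 32 genes with the Rn5s sequence share 1 value, 41.2 RPM, wherever they lie, and the lowest point is n-R5s127 at 15.3 RPM.

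Most 5S signal was assigned to the array. Summed over the 143 rows, 5S reached 2414 RPM (95% exact Poisson interval 2295 to 2539) in original-cross replicate 1 and 1700 RPM (1640 to 1761) in replicate 2. In the extra cross it reached 2203 RPM (2129 to 2277) and 2177 RPM (2133 to 2222). The intervals cover counting error only, since reads from amplified libraries are not independent molecules. The array held 88.2%, 88.4%, 89.6% and 90.7% of this sum in original-cross 1, extra-cross 1, original-cross 2 and extra-cross 2, and the 32 rows of the Rn5s sequence alone held 59.9%, 60.8%, 63.7% and 64.6%. The rows outside the array summed to 285 and 177 RPM in original-cross mice and 256 and 202 RPM in extra-cross mice. Both libraries of replicate 2 thus had a larger array share than both libraries of replicate 1, whatever the cross.

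The summed 5S level did not separate the crosses. It averaged 2057 ± 505 RPM in original-cross mice and 2190 ± 17.8 RPM in extra-cross mice (SD, n = 2 each), a log2 difference of 0.11 (extra over original), with the extra-cross values lying between those of the original cross. An exact two-sided permutation test gave p = 1, and with 2 libraries against 2 no such test can go below 0.333. In the replicate 1 table the extra cross was at 0.912 times the original cross, and in the replicate 2 table at 1.28 times, so the direction reversed. The log2 difference was 0.43 with median-ratio scaling, 0.40 relative to the rRNA class and -0.024 relative to the sum of the 5 small RNA classes, against 0.11 as deposited, so its direction depended on the scaling. The share of 5S in all RPM of the rRNA class was 3.86% and 2.83% in the original cross and 5.12% and 3.72% in the extra cross. The libraries differed in their content of markers of other cells, as given near the end, and in bulk samples fewer cells of a type and less RNA per cell cannot be told apart.

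The 5.8S rRNA, which pairs with 28S in the large subunit, was listed as 1 feature only. That row, n-R5-8s1, is a 148-base copy on chromosome 18. It stood for 2 reads and 1 read in the libraries of the original cross and for 2 reads in each extra-cross library. The levels were 3.16, 0.561, 1.28 and 0.476 RPM in that order. At this depth no difference between the crosses could be detected for this row. Its reads do not measure the level of 5.8S rRNA as a whole.

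Among the 98 distinct 5S members, 19 had a mean of at least 10 RPM over the 4 libraries and entered the test, 11 of them in the array and 8 outside. A further 21 lay between 1 and 10 RPM and 58 below 1 RPM, and 10 of the 98 were listed in 1 table only. The test was limma on log2(RPM + 1), with Benjamini-Hochberg adjustment over all 760 small RNA features tested, and fold changes on that scale understate those of low features. The 760 count every row, 59 of them 5S rows, and become 543 when identical rows are counted once. Shares and medians over the 760 therefore use another unit than the 19 distinct members and include the members' own rows. None of the 19 passed an adjusted p of 0.05, where the share called among all 760 features was 0%. At an unadjusted p below 0.05 there were again 0 of 19, beside 14.7% of the 760. The smallest unadjusted p of a 5S member was 0.572 in limma, and adjusted p ran from 0.995 to 0.997. With 2 mice per cross the spread between replicates limits what this test can detect. The median log2 fold change (extra over original) was 0.08 over the 19 members (-0.05 when scaled to the sum of the 5 small RNA classes) and -0.12 over all 760 features.

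**Figure D2:**
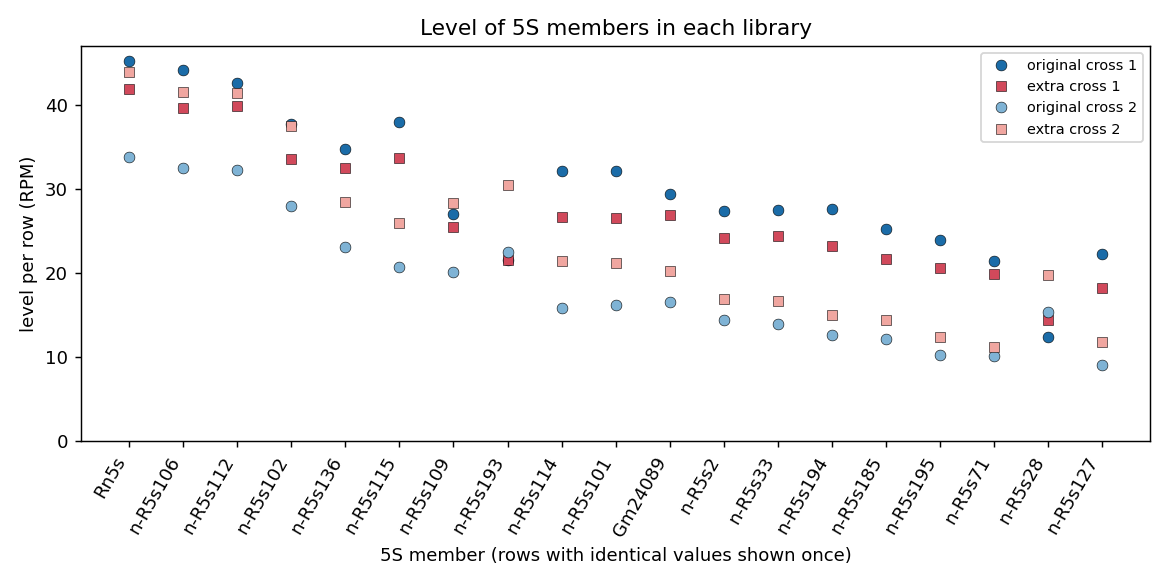
Level per row (RPM) of the 19 tested distinct 5S members in each of the 4 libraries, with circles for the original cross and squares for the extra cross, dark for replicate 1 and pale for replicate 2. For every member shown the values of the crosses overlap, from Rn5s at 33.8 to 45.2 RPM to n-R5s127 at 9.11 to 22.3 RPM.

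Rn5s, the reference copy, was the most abundant member per row. Each of its 32 identical rows stood at 45.2 and 33.8 RPM in original-cross replicates 1 and 2 and at 41.8 and 43.9 RPM in extra-cross mice, or 28.6, 60.3, 65.2 and 184.7 reads per row. The highest and the lowest of the 4 values both belonged to the original cross. Its log2 fold change was 0.13 ± 0.41 (SE, limma adjusted p 0.995), and in the scaling to the sum of the 5 small RNA classes it was -0.0035. The copies n-R5s106, n-R5s112 and n-R5s102 had the same order of libraries. n-R5s106, which differs at position 62 (counted from 1 at the 5′ end of Rn5s), is present in 4 rows and stood at 44.1 and 32.4 RPM in original-cross mice and 39.6 and 41.5 RPM in extra-cross mice. n-R5s112, which differs at position 44 and is present in 3 rows, stood at 42.6 and 32.2 RPM, and at 39.8 and 41.4 RPM. n-R5s102, with 3 changes, at positions 89, 90 and 93, stood at 37.8 and 27.9 RPM in original-cross mice and 33.6 and 37.5 RPM in extra-cross mice. In each of these 3 copies original-cross replicate 2 was the lowest library and original-cross replicate 1 the highest.

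A second pattern appeared in copies that carry a change near the 5′ end. In n-R5s115, changed at positions 3 and 86, the original cross gave 38.0 and 20.7 RPM and the extra cross 33.7 and 25.9 RPM. In n-R5s136, changed at position 33, the values were 34.8 and 23.1 RPM against 32.4 and 28.4 RPM. n-R5s101, changed at position 2 in addition to the 3 changes of n-R5s102, gave 32.1 and 16.1 RPM in original-cross mice and 26.5 and 21.2 RPM in extra-cross mice. In all of these, both replicate 1 libraries were above both replicate 2 libraries, and the crosses overlapped. n-R5s114, which adds a change at position 1 to those of n-R5s101, gave 32.1 and 15.9 RPM and 26.7 and 21.4 RPM. Gm24089, the 109-base copy that lacks a run of 10 bases, gave 29.4 and 16.5 RPM in original-cross mice and 26.9 and 20.2 RPM in extra-cross mice. n-R5s109, which is changed at positions 39, 44 and 99, gave 27.0 and 20.1 RPM and 25.5 and 28.3 RPM, and kept the order seen in Rn5s for its lowest library but not for its highest, which was extra-cross replicate 2. The lowest of the array, n-R5s127, has 8 changes, among them positions 34, 35 and 36, and stood at 22.3 and 9.11 RPM in original-cross mice and at 18.2 and 11.8 RPM in extra-cross mice.

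Comparing copies that differ by 1 or several changes gave the size of this pattern within each library. Where copies differ at several positions, the difference cannot be assigned to any 1 of them. From n-R5s102 to n-R5s101, a step at position 2 alone, the level was lower by 15.1% in original-cross 1 and 21.1% in extra-cross 1, and by 42.2% in original-cross 2 and 43.5% in extra-cross 2. The change at position 33, the step from Rn5s to n-R5s136, went with a level lower by 23.1% and 22.5% in the replicate 1 libraries (original, then extra cross) and by 31.8% and 35.3% in the replicate 2 libraries. For the changes at positions 3 and 86 of n-R5s115 the corresponding differences were 16.0% and 19.6%, then 38.8% and 40.9%. The 10 missing bases of Gm24089 went with levels lower by 35.0% and 35.7%, then 51.2% and 53.9%. Further along the molecule, the steps at position 44, at position 62 and of n-R5s102 did not separate the replicate numbers. n-R5s28, whose 6 changes begin at position 37, separated them in the other direction. It was lower than Rn5s by 72.5% and 65.5% in the replicate 1 libraries (original, then extra cross) and by 54.7% and 55.0% in the replicate 2 libraries. The change at position 44 went with levels lower by 5.85%, 4.85%, 4.81% and 5.75% in original-cross 1, extra-cross 1, original-cross 2 and extra-cross 2, that at position 62 with 2.44%, 5.37%, 4.16% and 5.42%, and the 3 changes of n-R5s102 with 16.4%, 19.7%, 17.5% and 14.6%. n-R5s114, which adds a change at position 1 to those of n-R5s101, was lower than n-R5s101 by 0%, -0.605%, 1.74% and -1.03%. These percentages carry no counting error. In original-cross 1, a row stood for 28.6 reads in Rn5s, 27.9 in n-R5s106, 23.9 in n-R5s102 and 20.3 in n-R5s101, so differences there rest on few reads. How reads were assigned to copies is not stated, and an effect of any position was not tested.

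The same split held for the other tested copies when each was expressed as a percentage of Rn5s in its own library. The 18 tested members other than Rn5s were divided by whether their first 36 bases equal those of Rn5s, a length chosen after the values were seen. In 12 of 12 copies with a change in this stretch, both replicate 2 libraries were below both replicate 1 libraries. Of the 6 copies without one, 0 were lower, 2 were higher and 4 overlapped. The 2 that were higher were n-R5s193, at 47.6% and 66.6% of Rn5s in the original cross and 51.6% and 69.3% in the extra cross, and n-R5s28, at 27.5% and 45.3% and at 34.5% and 45.0%. Among the 21 copies between 1 and 10 RPM, all of which carry a change in the first 36 bases, 9 were lower in replicate 2, 5 higher and 7 overlapping. Copies share reads, so these counts describe the libraries and carry no test, and the labels do not say what the replicate numbers stand for. The share of all 760 features with such a split by replicate number was not computed. Over those features the deviations of same-numbered libraries correlated at 0.87, so differences by replicate number were not particular to 5S.

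**Figure D3:**
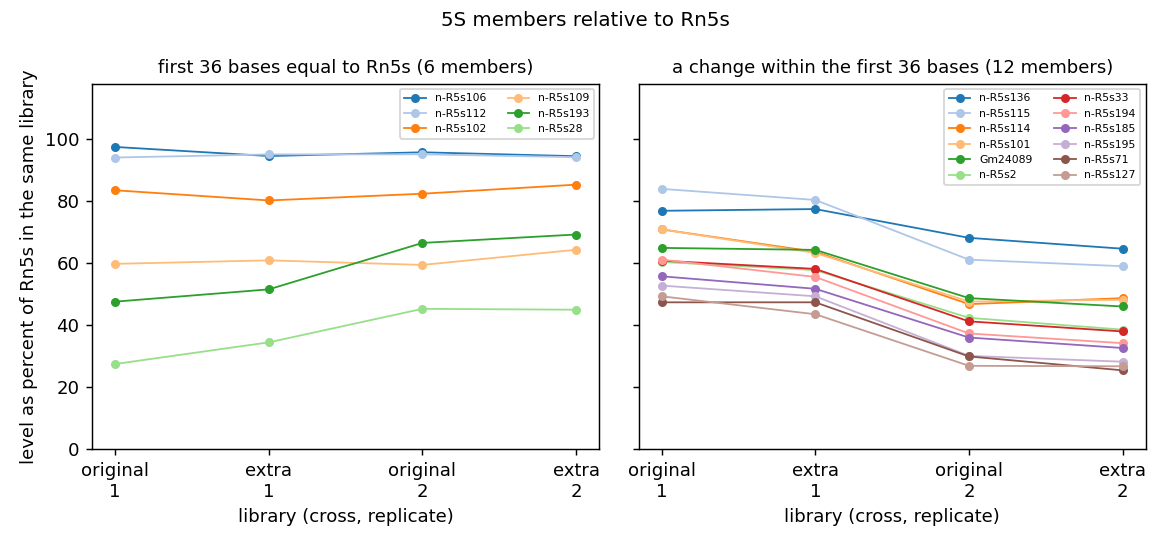
Level of 18 tested 5S members as a percentage of Rn5s in the same library, for the 6 members whose first 36 bases equal Rn5s (left) and the 12 with a change there (right). Lines join the values of 1 member, and on the right every line is lower in both replicate 2 libraries than in both replicate 1 libraries, with no such fall on the left.

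Outside the array, the member with the highest mean over the 4 libraries was n-R5s193 on chromosome 4 (chr4:149817732-149817840, plus strand), a 109-base copy whose first 90 bases are those of Rn5s. It stood at 21.5 and 22.5 RPM in original-cross mice and 21.6 and 30.4 RPM in extra-cross mice, with 3 of the 4 libraries within about 1 RPM of one another and extra-cross replicate 2 above them. It led the dispersed copies in the replicate 2 libraries only: in both replicate 1 libraries n-R5s194, n-R5s33, n-R5s2 and n-R5s185 were above it. Its log2 fold change was 0.21 ± 0.43 (SE, limma adjusted p 0.995). n-R5s28 on chromosome 17 likewise had the larger value in the extra cross within each table, 14.4 against 12.4 RPM and 19.8 against 15.3 RPM, with a log2 fold change of 0.27 ± 0.45 (SE, limma adjusted p 0.995), the highest of the 19 with all libraries. That value was 0.13 without original-cross replicate 1, 0.059 without extra-cross replicate 2 and 0.49 without extra-cross replicate 1. Its lowest extra-cross value was nevertheless below the original-cross replicate 2 value, so the groups overlapped. At the other end of the order, the log2 fold changes of n-R5s194 on chromosome 3, n-R5s185 on chromosome 4 and n-R5s71 on chromosome 11 were -0.0038, 0.0035 and 0.01. n-R5s194 gave 27.7 and 12.6 RPM in original-cross mice and 23.3 and 15.0 RPM in extra-cross mice, again with both replicate 1 libraries on top. The same order held for the other two of these 3 and for n-R5s2, n-R5s33 and n-R5s195, whose levels ran from 14.4 to 27.3, 14.0 to 27.5 and 10.2 to 23.9 RPM. n-R5s71 gave 21.4 and 10.1 RPM and 19.8 and 11.2 RPM, and n-R5s185 25.2 and 12.2 RPM and 21.7 and 14.3 RPM.

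Between the tables, the direction of the difference reversed for most tested members. The extra cross was below the original cross in the replicate 1 table for 17 of 19 (median log2 ratio -0.16, range -0.28 to 0.20) and above it in the replicate 2 table for 19 of 19 (median 0.34, range 0.13 to 0.47). The 17 lower in the replicate 1 table were higher in the replicate 2 table, a combination met by 156 of the 760 features (20.5%). Those 156 count every row and include the 51 rows of the array, so this share is not independent of the members. The other 2, n-R5s193 and n-R5s28, were higher in both (background 19.9%), and 0 were lower in both (background 46.3%). Groups without overlap were found for 0 of 19 members, beside 31.3% of all features tested. The medians of all 760 features were -0.22 and -0.10 in the tables of replicates 1 and 2. The 19 members share reads, so their common direction within a table counts as 1 observation rather than 19. Of the 69 5S members below 10 RPM that were listed in both tables, 14 were higher in the extra cross in both, 31 lower in both, and 24 had opposite directions or no difference in a table.

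**Figure D4:**
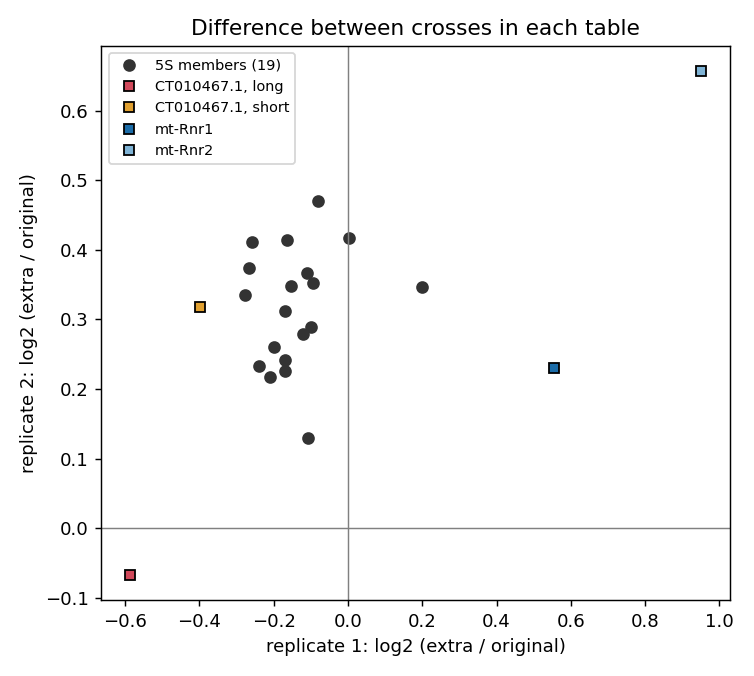
Log2 ratio of the extra over the original cross in the replicate 1 table (x) and the replicate 2 table (y), for the 19 tested 5S members (black), the 2 CT010467.1 transcripts and the 2 mitochondrial rRNAs. Of the 5S points 17 lie at upper left, while both mitochondrial rRNAs lie at upper right and the long CT010467.1 transcript at lower left.

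The level of a 5S copy followed the length of its longest stretch identical to Rn5s. Over the 98 distinct members, Spearman's rho between the mean level and this length was 0.83, and between the mean level and the percentage of identical positions 0.68. For the 87 outside the array the values were 0.76 and 0.55. These are descriptions across copies that share reads, within the same 4 libraries. Outside the array, 27 copies with a stretch of at least 30 bases had a median of 1.98 RPM (0.398 to 24.0), and 60 with a shorter one had a median of 0.096 RPM (0.0018 to 16.8). n-R5s195 and n-R5s71 were exceptions, at 16.8 and 15.6 RPM with longest stretches of 29 and 27 bases. The copies nearest the 10 RPM minimum were n-R5s28 and n-R5s127 above it (15.5 and 15.3 RPM) and Gm23806 and n-R5s151 below it (8.43 and 8.02 RPM).

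**Figure D5:**
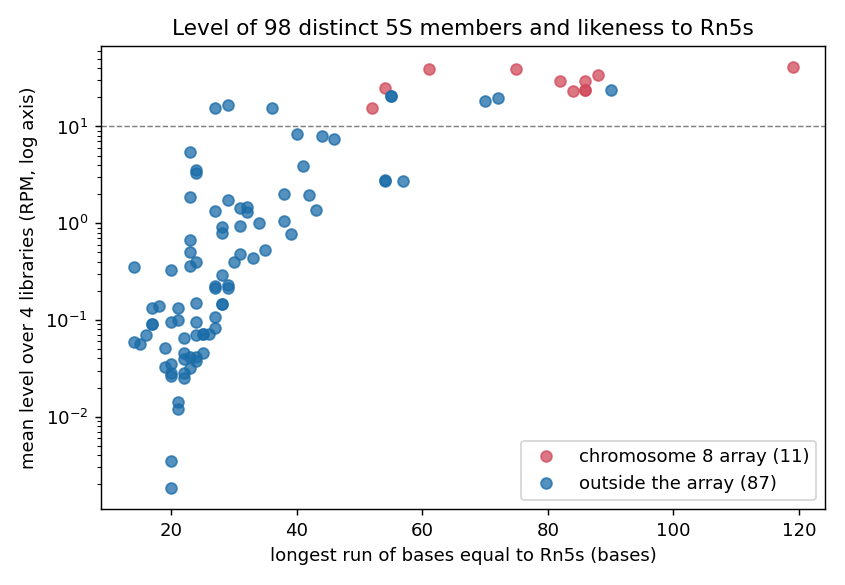
Mean level over 4 libraries (RPM, log axis) of the 98 distinct 5S members against the longest run of bases equal to Rn5s, with 11 array members in red, 87 members outside the array in blue and a dashed line at 10 RPM. Members with longer runs stand higher, and all 11 array members are above the line.

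The most abundant nuclear rRNA feature was not a 5S copy but the longer of the 2 CT010467.1 transcripts, called long here, at chr17:39846353-39848201, minus strand, a single exon of 1849 bases annotated as rRNA. RefSeq, on the same assembly, calls this interval Rn18s-rs5, an 18S-related pseudogene. The short CT010467.1 transcript (chr17:39848103-39848827, minus strand), has exons adding up to 714 bases, and its genomic interval overlaps that of the first by 99 bases. The longest stretch common to both is 67 bases, chr17:39848135-39848201. Read on the other, plus strand, the run is the sequence that follows, and its last 20 bases, in capitals, end as mature 18S rRNA does, so the annotated minus strand is the complement of 18S.
CT010467.1 shared run, other strand: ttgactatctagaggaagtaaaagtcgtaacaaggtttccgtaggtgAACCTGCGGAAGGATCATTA
Whether the authors' counting used strand is not given in the sources used here, so reads of 18S and reads complementary to it cannot be told apart in these values.

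The long CT010467.1 transcript stood at 58717 and 57008 RPM in original-cross replicates 1 and 2 and at 39099 and 54408 RPM in extra-cross mice. Both extra-cross values were below both original-cross values, with 1 of them close to the original cross and the other, extra-cross replicate 1, well below; 31.3% of all features tested had no overlap between the crosses. The means were 57862 ± 1208 RPM and 46753 ± 10825 RPM (SD, n = 2 each), and the exact two-sided permutation test gave p = 0.333, the smallest it can give. The log2 fold change was -0.33 ± 0.46 (SE, limma adjusted p 0.995). Leaving out extra-cross replicate 1 brought it to -0.09, and leaving out extra-cross replicate 2 to -0.57. With median-ratio scaling it was -0.0045, and with the replicate number as a block, which the labels do not give as a pairing, its adjusted p in limma was 0.0021 at the same log2 fold change, in a fit that called 22.5% of all features. The short CT010467.1 transcript gave 688 and 746 RPM in original-cross mice and 522 and 929 RPM in extra-cross mice, so that the original-cross values lay between those of the extra cross. Its log2 fold change was -0.04 ± 0.56 (SE, limma adjusted p 0.995) and became 0.28 with median-ratio scaling.

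Per base of annotated length, the summed 5S signal and the 18S-like transcript were of the same order. The 5S sum over the 119 bases of Rn5s was 20.3 and 14.3 RPM per base in the original cross and 18.5 and 18.3 in the extra cross. The long CT010467.1 transcript reached 31.8 and 30.8 RPM per base in the original cross and 21.1 and 29.4 in the extra cross, above the 5S value of the same library in all 4 libraries. The short CT010467.1 transcript, which lies mostly beyond the 18S end, reached 0.731 to 1.30 RPM per base, and the mitochondrial mt-Rnr1 and mt-Rnr2, the small and large subunit rRNAs of the mitochondrial ribosome, 0.199 to 0.319 and 0.283 to 0.547. The short transcript shares a run of 67 bases with the long one, and how much of its signal lies in that run cannot be told from these values.

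In both tables the mitochondrial rRNAs were higher in the extra-cross libraries, unlike most 5S members. The same held for 19.9% of all small RNA features tested. mt-Rnr2 was at 447 and 453 RPM in original-cross mice and 865 and 714 RPM in extra-cross mice (log2 fold change 0.80, limma adjusted p 0.826), and mt-Rnr1 at 207 and 190 RPM and at 304 and 222 RPM (0.39, limma adjusted p 0.995). Neither passed the threshold, and the difference between them and the 5S members was not tested. Rn28s1, the RefSeq entry for 28S rRNA, was at 43068 RPM in original-cross replicate 2 and at 37167 and 39272 RPM in extra-cross mice. Its value in original-cross replicate 1 was deposited as 2310 RPM on a scale 26.2 times below the other classes of that library, and is 60536 RPM when put on their scale.

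Transcripts of the proteins that make or carry 5S were scarce in these size-selected libraries. In the list of the 5S ribonucleoprotein and its assembly, 5 genes were listed and 1 was high enough to test: Rpl5, whose protein binds 5S before it joins the ribosome, stood at 36.3 and 14.0 RPM in original-cross mice (replicate 1 rescaled as above) and 18.0 and 18.0 RPM in extra-cross mice, so the groups overlapped (log2 fold change -0.32, limma adjusted p 0.620 over 477 RefSeq genes). Rpl11, its partner, stayed between 1.91 and 4.60 RPM. Gtf3a, which encodes TFIIIA, was listed at 0 in original-cross replicate 1 and between 0.257 and 1.22 RPM in the other libraries. Of 17 listed genes of RNA polymerase III and its 5S factors, 0 reached the minimum. Of 83 cytosolic ribosomal protein genes 25 were tested, 0 passed in either direction, and their median log2 fold change was -0.38, beside -0.50 for all 477 genes tested, of which 0% passed.

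Markers of the cells that sperm samples can hold differed between libraries. Marker transcripts are RefSeq entries, so their values in original-cross replicate 1 were multiplied by 26.2 like that of Rn28s1, and the reason for the deposited scale is not stated. Summed levels of 9 of 9 sperm transcripts were 4.32 to 10.5 RPM (0.181 RPM as deposited in original-cross replicate 1), with the protamine transcripts Prm1 and Prm2 among those at 0 in original-cross replicate 1. The 7 of 7 transcripts of epididymal epithelium summed to 41.6 (1.59 as deposited) and 107 RPM in original-cross mice and 120 and 137 RPM in extra-cross mice, with Lcn8 and Cst8 at 0 in original-cross replicate 1, so the labelled cell type was not the one whose marker transcripts were highest. The 5 of 5 of smooth muscle and stroma, led by the collagen transcript Col1a1, summed to 2471 and 3144 RPM in original-cross mice and 994 and 1252 RPM in extra-cross mice. The groups did not overlap on this scale, but they overlap as deposited, where original-cross replicate 1 is at 94.3 RPM. Col1a1, Col1a2 and Col3a1 made up nearly all of this sum, and each was without overlap on the rescaled values. The share of all RefSeq genes without overlap was not computed. Their median log2 fold change was -0.50 over the 477 tested, so lower values in the extra cross were not particular to these transcripts. The smooth muscle transcripts overlapped between the crosses. Acta2 was at 10.7 and 6.10 RPM in original-cross mice and 7.95 and 5.79 RPM in extra-cross mice. Myh11 was at 4.74 and 10.3 RPM and at 3.14 and 8.06 RPM. The 5 of 5 of blood summed to 3.96 to 9.67 RPM (0.342 RPM as deposited in original-cross replicate 1). MicroRNA markers needed no rescaling. Those of epididymal epithelium (5 of 5) summed to 4394 and 2055 RPM in original-cross mice and 10409 and 5315 RPM in extra-cross mice. Those of stroma (4 of 4) summed to 5645 and 4069 RPM and to 2578 and 3602 RPM. Both sums were without overlap between the crosses, as were 31.3% of all small RNA features tested. The microRNA markers of blood (4 of 4) were at 5143 and 7675 RPM in the replicate 1 libraries and at 901 and 762 RPM in the replicate 2 libraries. Those of sperm (3 of 3) were at 1918 and 1813 RPM and at 748 and 1204 RPM. Both had the same split by replicate number as the 5S copies changed near the 5′ end. The part of these differences in the rRNA values was not tested.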

How the data were processed

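The authors deposited RPM values in 2 tables, 1 per replicate number with 1 column per cross. Bowtie 1.1.2, CASAVA 1.8.2 and mm10 appear, without a role or order, in the submitters' processing notes. How reads were trimmed, annotated, divided among several matches or assigned a strand is not given in the sources used here. Features listed in 1 table only were set to 0 in the other. The commonest small value of a column was read as 1 read. With a tolerance of 0.02 reads, 28.6% to 36.3% of the values that stand for 20 reads or fewer came out whole, and no count model was run.

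Members were matched by transcript to the GENCODE M21 annotation (GRCm38, that is mm10). The sequences of the 5S copies were compared by position but are not reported here. The main fit used limma 3.58.1 in R 4.3.3 with a variance trend on log2(RPM + 1), a minimum mean of 10 RPM, cross as its only term and adjusted p below 0.05 over 760 features of 5 small RNA classes. RefSeq values, marker transcripts included, were multiplied by 26.2 in original-cross replicate 1, summed to 16785 genes and fitted apart. The summed 5S level left out the 5.8S row, which the plan had included; with it the log2 difference was again 0.11. Tables were made with pandas 2.3.3 in Python 3.11.15. The fit was also run on simulated data with independent libraries. That setting leaves out the correlation between same-numbered libraries given below, so it does not show how the fit performs on these data.

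The text names both CT010467.1 transcripts, the 10 most abundant distinct 5S members, the 3 with the highest and the 3 with the lowest fold change, and 2 on each side of the minimum; Gm24089, n-R5s2, n-R5s33, n-R5s195, Gm23764 and n-R5-8s1 were added after their values were seen. The members and lists were chosen with earlier results of these data known. Alternatives covered pseudocount, minimum, scaling, replicate block, variance trend, identical rows, features listed in both tables and each library left out. Replicates are single mice.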

Additional observations from a re-analysis of the deposited data

How the results depend on the processing

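No 5S member passed the threshold under any of the settings tried, and no small RNA feature did except with the replicate block, where 171 of 760 passed and the long CT010467.1 transcript (log2 fold change -0.33) reached an adjusted p of 0.0021 in limma (0.407 to 0.999 under the other settings). The replicate numbers are not known to pair the libraries: deviations of same-numbered libraries correlated at 0.87 over the 760 features, from 2 pairs only. Median-ratio scaling moved the median of all features by 0.31; under it and under scaling to the rRNA class the summed 5S difference was 0.43 and 0.40, the short CT010467.1 transcript turned to 0.28 and 0.25, and n-R5s194 to 0.30 and 0.27. The median over 5S members was 0.39 and 0.36 there, and -0.04 with no filter. Relative to the sum over 5 classes that median was -0.053, and these turned negative: Rn5s -0.0035, n-R5s106 -0.034, n-R5s112 -0.0030, n-R5s102 -0.0069, n-R5s136 -0.036, n-R5s115 -0.060, n-R5s114 -0.053, n-R5s101 -0.076, n-R5s185 -0.13, n-R5s71 -0.12 and n-R5s127 -0.10. With a pseudocount of 5, n-R5s185 was -0.0056. The cause was not tested.

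Leaving out 1 library at a time (the lone library of a cross is then assumed to vary like the other cross) gave these ranges, most running from without original-cross replicate 2 to without original-cross replicate 1: 5S median -0.35 to 0.48, summed 5S -0.14 to 0.37, Rn5s -0.075 to 0.33, n-R5s106 -0.12 to 0.31, n-R5s112 -0.066 to 0.32, n-R5s102 -0.087 to 0.34, n-R5s136 -0.19 to 0.38, n-R5s115 -0.35 to 0.49, n-R5s109 -0.0099 to 0.40, n-R5s114 -0.41 to 0.56, n-R5s101 -0.42 to 0.53, n-R5s194 -0.54 to 0.53, n-R5s185 -0.49 to 0.50, n-R5s71 -0.49 to 0.52 and n-R5s127 -0.57 to 0.63. Extra-cross replicate 2 and extra-cross replicate 1 gave the ends for n-R5s193 (-0.028 to 0.45), n-R5s28 (0.059 to 0.49) and the short CT010467.1 transcript (-0.46 to 0.38). Pseudocount, variance trend and the absence of a filter do not enter the summed 5S level. Depth limits the copies below 10 RPM, which stood for few reads in original-cross replicate 1.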
